A study of Ictidomys tridecemlineatus with 5 samples.

Results

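The genes described here are the cytokines, chemokines and innate immune receptors of the ground squirrel eye. They were chosen by name alone: a transcript belongs to the set when the description of its Swiss-Prot hit begins with Interleukin-, C-C or C-X-C motif chemokine, C-C or C-X-C chemokine receptor, Interferon, or Toll-like receptor. Transcripts were then grouped by the Swiss-Prot entry name, which gave 124 members among the 15938 protein names of the series. The eye table holds 116 of them in 215 transcripts, and the retina table holds 91 in 201 transcripts.

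RNA came from the ground squirrel (Ictidomys tridecemlineatus), a hibernating rodent that is awake in daylight, and was sequenced in 2 libraries of eye and 3 libraries of retina. All animals are labelled wild type, and no treatment was named. Each library preparation was pooled from 4 animals, and the labels used here give neither their age nor their state. For each transcript a tissue has a single deposited value, so the spread between libraries is unknown, no difference could be checked against replicates, and no test was made.

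Cytokines are secreted proteins that carry signals between cells, and chemokines are the cytokines that guide moving cells. Interleukins and interferons act through paired receptor chains at the cell surface, most of them coupled to JAK kinases and STAT transcription factors, while the interleukin-1 receptors and the Toll-like receptors share the adaptor MYD88 and the IRAK kinases. Toll-like receptors recognise microbial lipids, proteins and nucleic acids, and interferons switch on a large set of antiviral genes. In the eye, the surface epithelia, resident macrophages, microglia and vessels are known sites of such signalling, and the inside of the eye is known for restrained immune responses.

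The tissue labels were checked on marker genes. Summed over 8 photoreceptor markers, levels were 3097 RPKM (reads per kilobase of transcript, scaled to the sequencing total) in eye and 6104 RPKM in retina. The 7 lens markers summed to 6543 RPKM in eye and 5.31 RPKM in retina, and the 7 markers of cornea and conjunctiva to 6936 RPKM in eye and 2.97 RPKM in retina. The 6 connective tissue markers reached 517 RPKM in eye and 18.97 RPKM in retina. The eye libraries thus hold photoreceptor RNA together with RNA of lens, cornea and connective tissue, whose markers were much lower in the retina libraries. Some levels in these sums rest on short fragments, such as 147 bases for CRYAA and 139 bases for KRT19 in eye, so the sizes of the sums are uncertain. In bulk tissue, fewer cells of a type and less RNA per cell cannot be told apart.

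A member's level below is the RPKM of its highest transcript. The tissues were assembled and normalized separately, which holds for every level set side by side here. At 1 RPKM a transcript of 1000 bases has 264 reads in eye and 356 reads in retina, recovered from the values. The difference between the tissues was taken as the log2 ratio of eye to retina after adding 1 RPKM to each, which understates the difference of low genes, and a member was called higher at a 2-fold difference on this scale. Of the 83 members in both tables, 78 reached 1 RPKM in either tissue and were compared. Counting intervals at 95% had a median half-width of 0.08 on the log2 scale and reached 0.24 for IL11. They cover counting error only, not the spread between libraries or animals.

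Most members were low in both tissues and higher in eye than in retina. Their median level was 3.29 RPKM in eye and 1.70 RPKM in retina, where all protein names had medians of 8.01 RPKM and 7.92 RPKM. In eye 92 members reached 1 RPKM and 30 reached 10 RPKM. In retina 56 members reached 1 RPKM and 17 reached 10 RPKM. Summed over all members, the level was 1467 RPKM in eye and 608 RPKM in retina.

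Of the 78 members compared, 61 (78.2%) were higher in eye by any amount, against 49.7% of the 13383 proteins compared in the whole series. The counting interval lay above 0 for 61 members, below 0 for 14, and included 0 for 3. At least 2-fold higher in eye were 27 members (34.6%), against 11.8% of all proteins. Those at least 2-fold higher in retina numbered 2 (2.56%), against 3.60% of all proteins, and the other 49 lay within 2-fold. The median difference was 0.64 for the members and -0.0035 for all proteins compared.

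**Figure D1:**
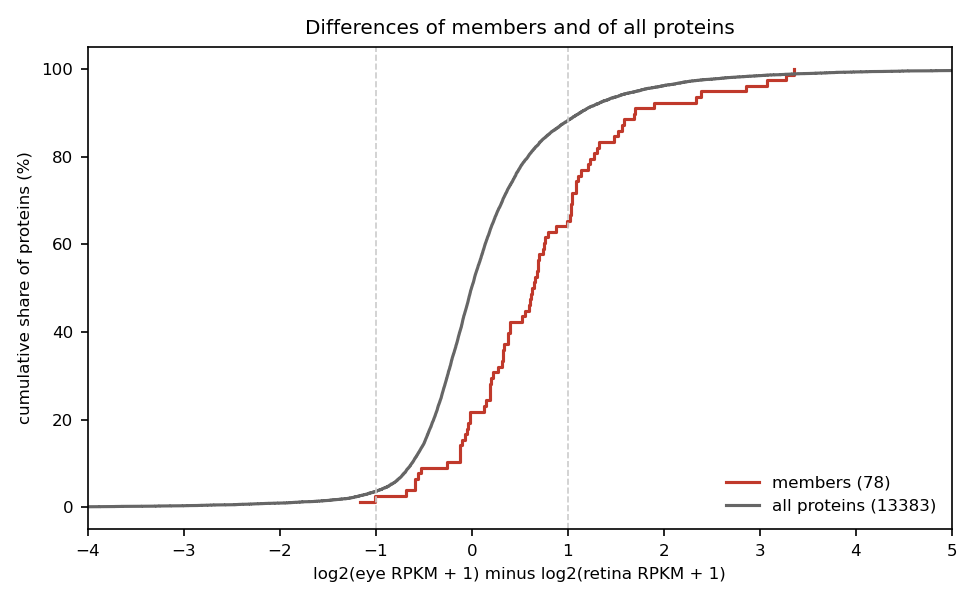
Cumulative share of proteins (%) by log2 difference between eye and retina (1 RPKM added to each), for the 78 members compared (red) and all 13383 proteins (grey), with dashed lines at 2-fold. The curve of the members lies to the right of the grey one over most of its length, with a median of 0.64 against -0.0035.

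The size of the shift depended on how the tissues were scaled. When the levels of each tissue were rescaled to an equal total, the median of all proteins moved to -0.29 and that of the members to 0.34. Then 18 members were at least 2-fold higher in eye, against 8.51% of all proteins, and 2 were at least 2-fold higher in retina, against 7.86% of all proteins. By role, over all members in both tables, the equal-total scaling left 15 of 18 interferon-induced proteins, 7 of 8 interferon regulatory factors, 8 of 11 interleukins, 11 of 17 interleukin receptors and 4 of 4 Toll-like receptors higher in eye. The median turned to -0.23 for the interleukin receptor-associated proteins and to -0.12 for the proteins named for interferon only, against 0.05 and 0.19 as deposited. Sums over all transcripts of a name would count shared reads repeatedly, and they gave another split. By sums, 24 of 82 members were at least 2-fold higher in eye, against 16.8% of all proteins, and 9 were at least 2-fold higher in retina, against 19.3% of all proteins. By sums rescaled to an equal total, 9 of 81 members were at least 2-fold higher in eye (all proteins 9.01%) and 15 were at least 2-fold higher in retina (all proteins 35.6%), with a median of 0.09 for the members and -0.64 for all proteins. On that scale the medians by role were 0.22 for the interleukins, -0.11 for the C-C chemokines, 0.56 for the C-X-C chemokines, -0.16 for the chemokine receptors, -0.58 for the interferon receptors, 0.29 for the Toll-like receptors and -0.55 for the proteins named for interferon only. Without the added constant, the plain ratio of RPKM was 2 or more for 36 of the 78 members (46.2%) and for 15.3% of all proteins.

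Members were also found in the eye table alone more often than other names were. The eye table alone held 33 members (26.6%, against 8.40% of all names), and the retina table alone held 8 (6.45%, against 4.08%). Low levels go with this, because 18 of the 33 members found in eye only were under 1 RPKM, and their median was 0.948 RPKM. Among the names under 5 RPKM in eye, 29 of 74 members (39.2%) were missing from the retina table, against 18.8% of all 5638 such names. A name missing from a table was not assembled there or matched another entry, which is not a level of 0. The highest members found in eye only were the membrane protein IFITM1 at 164 RPKM, IFI27L2B at 13.6 RPKM on a weak match with 57% similarity, the giant GTPase GVIN1 at 7.21 RPKM, and the chemokines CCL14 at 5.74 RPKM and CCL3 at 4.47 RPKM. IFNW1 led the 8 members found in retina only, at 13.9 RPKM, and the other 7 were under 1 RPKM.

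Among the interleukins, 17 names were found, 11 of them in both tables. Of the 9 compared, 8 were higher in eye and 1 was higher in retina, with 3 past 2-fold in eye and a median difference of 0.59. IL18, a cytokine of the interleukin-1 family that is matured by inflammasome caspases and induces interferon gamma, had 13.99 RPKM in eye and 0.777 RPKM in retina. That is 18.02-fold in RPKM, a difference of 3.08 ± 0.10 on the log2 scale, and IL18 was the most abundant interleukin in eye. In retina its level was close to the median of the interleukins there, 0.697 RPKM.

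IL1RN, the antagonist that occupies the interleukin-1 receptor without signalling, had 5.68 RPKM in eye and 0.325 RPKM in retina, a difference of 2.33. Its retina value comes from a fragment of 242 bases. The agonist IL1B, a main fever-inducing cytokine of macrophages, had 1.20 RPKM in eye and 0.378 RPKM in retina. IL1A was found in eye only, at 0.309 RPKM on a fragment of 159 bases. In eye the antagonist therefore stood above both agonists in RPKM. IL33, an alarm signal released from the nucleus of damaged cells, had 1.86 RPKM in eye and 1.29 RPKM in retina.

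IL34, the second ligand of the CSF1 receptor and a survival factor for microglia, had 9.17 RPKM in eye and 3.92 RPKM in retina, a difference of 1.05. The receptor itself, CSF1R, which is no member, was found in the retina table only, at 5.74 RPKM. IL17D, a member of the interleukin-17 family, had 7.71 RPKM in eye and 5.99 RPKM in retina and so was more even. Its relatives IL25 and IL17B were found in eye only, at 2.14 and 0.954 RPKM.

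IL26, a cytokine of the interleukin-10 family that mouse lacks, ran the other way, with 4.70 RPKM in eye and 8.18 RPKM in retina, a difference of -0.69. It was the most abundant interleukin of the retina table. The IL26 gene span overlaps that of IFNG in the RefSeq annotation (assembly mIctTri1.hap1), and whether the counting used strand is not given in the sources used here, so reads of the 2 genes may not be separable. IL15, a growth factor of killer lymphocytes, had 1.84 RPKM in eye and 1.47 RPKM in retina. EBI3, a subunit shared by IL27 and IL35, had 1.95 RPKM in eye and 0.957 RPKM in retina.

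The remaining interleukins were near the lower end of the tables. IL6, a driver of the acute phase response, had 0.710 RPKM in eye and 0.490 RPKM in retina. IL11 had 0.519 RPKM in eye and 0.555 RPKM in retina. Both were below the filter and have no call. IL23A, IL12A and IL12B, subunits of the cytokines that steer T helper cells, were found in retina only, at 0.617, 0.316 and 0.277 RPKM.

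The 11 C-C chemokines were mostly names of the eye table, with 4 in both tables, 7 in eye only and 0 in retina only. Of the 4 compared, 2 were higher in eye and 2 in retina, with 1 past 2-fold in each direction. CCL21, which draws T cells and dendritic cells to lymph vessels through CCR7, had 18.2 RPKM in eye and 0.880 RPKM in retina. Its difference of 3.36, or 20.7-fold in RPKM, exceeded that of every other member compared. CCL19, the other ligand of CCR7, was found in eye only, at 3.87 RPKM.

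CCL27, known in mouse and human as a chemokine of skin keratinocytes, had 14.8 RPKM in eye and 34.5 RPKM in retina. The difference of -1.16 was the lowest among the members. The levels come from transcripts of unlike length: the highest one had 4113 bases in eye and 432 bases in retina, and a retina transcript of 3862 bases had 22.7 RPKM. In RefSeq the CCL27 gene span lies inside that of IL11RA, and IL11RA was higher in eye by its highest transcript. By sums the IL11RA difference turned to -0.52, or -1.16 at an equal total. CCL28, an epithelial chemokine that shares the receptor CCR10 with CCL27, had 1.00 RPKM in eye and 1.90 RPKM in retina. CCR10 was close to even, with 1.46 RPKM in eye and 1.67 RPKM in retina.

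CCL8, a monocyte chemokine, had 1.72 RPKM in eye and 0.370 RPKM in retina, a difference of 0.99 that lies just short of 2-fold. The further names found in eye only were CCL14 at 5.74 RPKM, CCL3 at 4.47 RPKM and CCL15 at 2.41 RPKM, and below 1 RPKM the monocyte attractant CCL2, the eosinophil attractant CCL26 and the T cell attractant CCL5 at 0.948, 0.704 and 0.572 RPKM. Closely related chemokines can exchange Swiss-Prot names between squirrel transcripts, so the split among CCL3, CCL5, CCL14 and CCL15 is uncertain.

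CXCL14, a chemokine made by many epithelia and neurons at rest, was the most abundant ligand among the members in either tissue, with 201 RPKM in eye and 90.6 RPKM in retina. The difference of 1.14 ± 0.015, or 2.22-fold in RPKM, rests on 102292 eye reads over 1924 bases. There are 2 CXCL14 transcripts in the eye table and 7 in the retina table, and the recovered reads of the retina ones lie between 56887 and 57005 each, nearly the same number on every one. Summed over transcripts, which would count shared reads repeatedly, the difference turned to -1.20. CXCL16, a membrane-bound chemokine that also takes up oxidised lipid, had 19.8 RPKM in eye and 1.15 RPKM in retina, which is 17.2-fold. Its receptor CXCR6 was found in eye only, at 4.33 RPKM, and the CXCR6 gene span overlaps Fyco1 in RefSeq. CXCL10 and CXCL9, interferon-induced attractants of activated T cells, were found in eye only, at 1.09 and 0.639 RPKM.

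**Figure D2:**
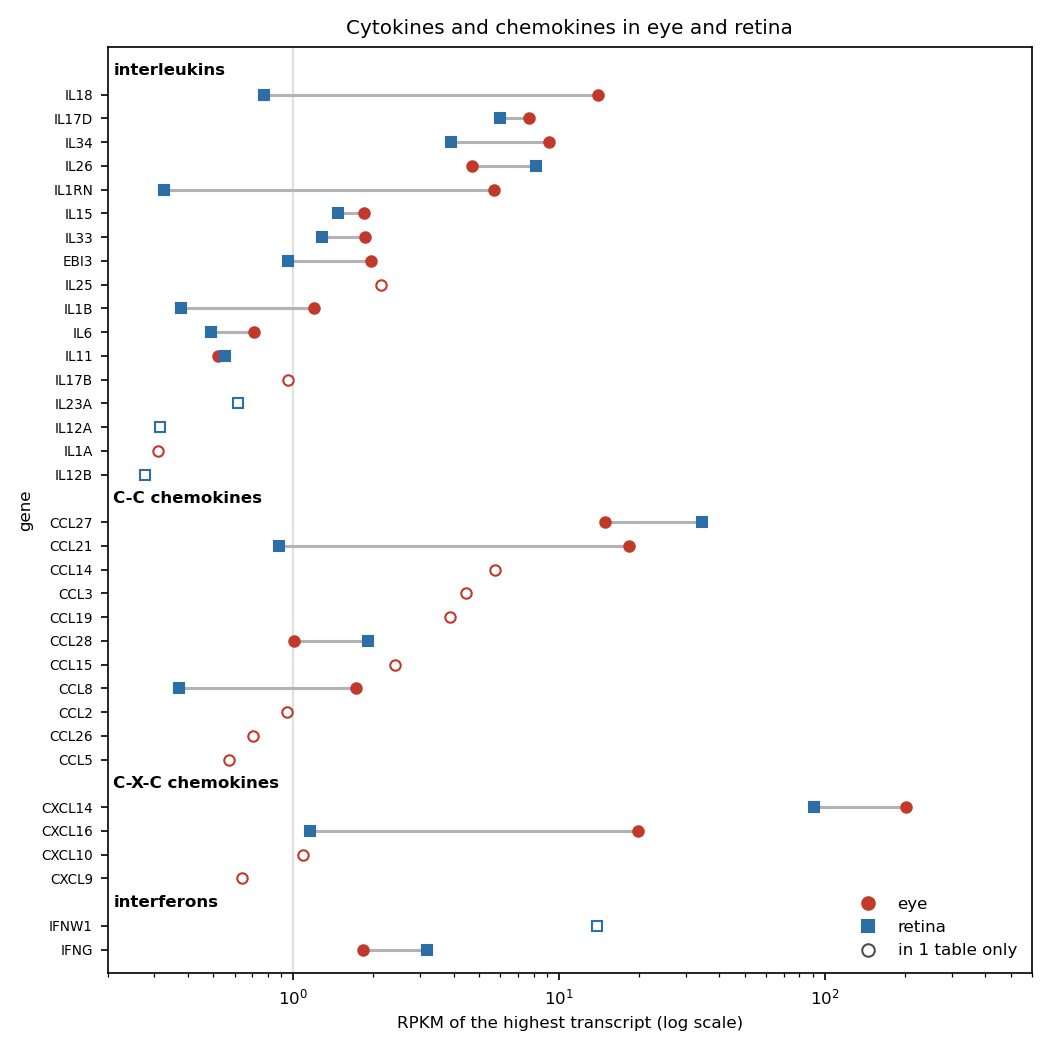
RPKM of the highest transcript (log scale) of each interleukin, chemokine and interferon in eye (red circles) and retina (blue squares). Grey lines join the values of one gene, and open symbols mark genes found in 1 table only. CXCL14 stands highest in both tissues, at 201 RPKM in eye and 90.6 RPKM in retina, and the long lines of CCL21, CXCL16 and IL18 end near 1 RPKM in retina.

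The 8 chemokine receptors were low, and none of the 3 compared was past 2-fold. ACKR3, an atypical receptor that scavenges CXCL12, led with 15.7 RPKM in eye and 9.64 RPKM in retina. CXCR4, the signalling receptor of the same ligand, had 3.54 RPKM in eye and 2.61 RPKM in retina. Both receptors of CXCL12 were thus present in both tissues and somewhat higher in eye, by 0.65 and 0.33. ACKR4, a scavenger of CCL19 and CCL21, was found in eye only at 1.94 RPKM. CCR1, a receptor of monocytes and macrophages, was found there at 0.350 RPKM. CCR4 was found in retina only, at 0.315 RPKM.

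Among the 25 interleukin receptor names, 17 were in both tables and 8 in eye only. Of the 15 compared, 11 were higher in eye and 4 in retina, with 6 past 2-fold in eye and 1 in retina, and the median difference was 0.62. By sums at an equal total the role had 0 past 2-fold in eye and 4 in retina, and a median of 0.05. IL11RA, the chain that binds IL11, was the most abundant, with 44.2 RPKM in eye and 28.7 RPKM in retina. Its ligand was under 1 RPKM in both tissues. The retina level of IL11RA is that of a transcript of 691 bases that matched over 40 residues. The best-matching retina transcript, of 1700 bases, had 27.1 RPKM. By sums the difference of IL11RA was -0.52. Another name of this receptor, IL11RA2, known from mouse, had 16.1 RPKM in eye and 9.48 RPKM in retina, and the near-identical copies may share reads.

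IL6ST, the gp130 chain that carries the signal of IL6, IL11 and their relatives, was even, with 10.9 RPKM in eye and 11.1 RPKM in retina. IL6R, the chain that binds IL6, was found in eye only, at 0.575 RPKM. IL10RB, a chain shared by the IL10, IL22, IL26 and lambda interferon receptors, had 8.99 RPKM in eye and 5.52 RPKM in retina. Its partner IL10RA, a chain of leukocytes, had 1.99 RPKM in eye and 0.415 RPKM in retina, a difference of 1.08. IL10RA was past 2-fold in eye and IL10RB was not, but at an equal total the IL10RA difference was 0.92, short of 2-fold. The retina value of IL10RA rests on 34 reads of a fragment of 230 bases.

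The other receptors past 2-fold in eye were single chains at low levels. IL13RA1, which binds IL13 and pairs with IL4R, had 3.28 RPKM in eye and 0.451 RPKM in retina, a difference of 1.56. IL27RA had 3.69 RPKM in eye and 0.865 RPKM in retina, a difference of 1.33. IL17RA, the chain common to the interleukin-17 receptors, had 2.54 RPKM in eye and 0.529 RPKM in retina. Its partner IL17RC had 3.32 RPKM in eye and 1.09 RPKM in retina. IL1R1, the signalling receptor of interleukin-1, had 3.30 RPKM in eye and 1.03 RPKM in retina. These 5 chains lay between 2.54 and 3.69 RPKM in eye. IL1RAP, the partner chain of IL1R1, stayed near even with 1.63 RPKM in eye and 1.70 RPKM in retina.

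IL20RB, a chain of the receptors for IL19, IL20 and IL24, was the 1 receptor past 2-fold in retina, with 10.1 RPKM in eye and 21.3 RPKM in retina. Its retina level comes from a transcript of 754 bases, and a retina transcript of 2456 bases had 9.69 RPKM. Taken on the best-matching transcripts the difference was 0.06, so the call rests on the choice of transcript. IL17RB, the receptor chain of IL25, had 0.841 RPKM in eye and 1.77 RPKM in retina, a difference of -0.59, and its gene span overlaps Actr8. The receptor names found in eye only ran from IL18R1, which binds IL18, at 2.51 RPKM, through IL17RE at 1.04 RPKM and the decoy IL13RA2 at 1.01 RPKM. IL22RA1, the decoy IL1R2, IL15RA and the lambda interferon chain IFNLR1 were found there at 0.687, 0.467, 0.438 and 0.263 RPKM. Each of these 4 rests on a fragment of 259 bases or fewer.

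The 6 proteins that carry or bind interleukin signals were all in both tables and within 2-fold of even by their highest transcripts, with 3 higher in eye, 3 higher in retina and 0 past 2-fold. By sums 3 of them were past 2-fold in retina, IRAK1BP1 at -1.63, IRAK1 at -1.06 and IL18BP at -1.04, and the median was -0.32, or -0.76 at an equal total. IRAK1, a kinase recruited by MYD88, had 6.84 RPKM in eye and 5.87 RPKM in retina. IRAK4, which starts that kinase cascade, had 2.56 RPKM in eye and 1.70 RPKM in retina. IRAK2, also a kinase of that complex, had 3.54 RPKM in eye and 3.85 RPKM in retina. IRAK3, an inhibitor of the cascade found mainly in monocytes and macrophages, had the highest difference of the 4 IRAK names, 0.74, with 2.20 RPKM in eye and 0.922 RPKM in retina, a plain ratio of 2.39. The binding protein IRAK1BP1 had 6.63 RPKM in eye and 8.16 RPKM in retina. IL18BP, a secreted trap of IL18, had 1.23 RPKM in eye and 2.37 RPKM in retina, so that IL18 and its trap differed in opposite directions, by 3.08 and -0.60.

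Of the interferons themselves, 2 names were found. IFNG, the interferon of T cells and natural killer cells, had 1.82 RPKM in eye and 3.17 RPKM in retina, a difference of -0.56 in the same direction as the overlapping IL26. IFNW1, a type I interferon, was found in retina only, at 13.9 RPKM, but its match covers 41 residues with an E-value of 6.78e-06, where the highest E-value in the tables is 9.99e-06, so the name is uncertain. IFNG was thus the 1 interferon ligand with a level in both tables.

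The 4 interferon receptor chains were in both tables. IFNAR1 and IFNAR2, the pair for type I interferons, were even: IFNAR1 had 10.3 RPKM in eye and 10.8 RPKM in retina, and IFNAR2 had 2.73 RPKM in eye and 2.77 RPKM in retina. The pair for interferon gamma was higher in eye by the highest transcripts. IFNGR1 had 7.92 RPKM in eye and 3.35 RPKM in retina, a difference of 1.04, or 0.76 at an equal total. IFNGR2 had 10.5 RPKM in eye and 6.42 RPKM in retina, a difference of 0.63. By sums the IFNGR2 difference turned to -0.09, or -0.68 at an equal total, and its gene span overlaps Tmem50b. In RefSeq, IFNAR2, IL10RB, IFNAR1 and IFNGR2 are direct neighbours, and the differences of these 4 were -0.02, 0.62, -0.07 and 0.63 in that order, so neighbours did not share a difference.

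The Toll-like receptors gave 8 names, of which 4 were in both tables, 3 in eye only and 1 in retina only. All 3 compared were higher in eye, and none was past 2-fold. TLR4, the receptor of bacterial lipopolysaccharide, was the most abundant, with 6.61 RPKM in eye and 4.19 RPKM in retina. TLR3, an endosomal receptor of double-stranded RNA, had 2.35 RPKM in eye and 0.985 RPKM in retina. TLR2, a receptor of bacterial lipoproteins, had 1.33 RPKM in eye and 0.345 RPKM in retina. The order TLR4, TLR3, TLR2 held in both tissues. TLR7, a receptor of single-stranded RNA, stayed below the filter with 0.571 RPKM in eye and 0.244 RPKM in retina, the lowest level of any member in the retina table.

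TLR1, the flagellin receptor TLR5 and the DNA receptor TLR9 were found in eye only, at 0.920, 0.753 and 0.498 RPKM. TLR6 was found in retina only, at 0.302 RPKM on a fragment of 177 bases. TLR1 and TLR6 are close relatives with overlapping gene spans in RefSeq, so which of the names a fragment receives is uncertain.

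**Figure D3:**
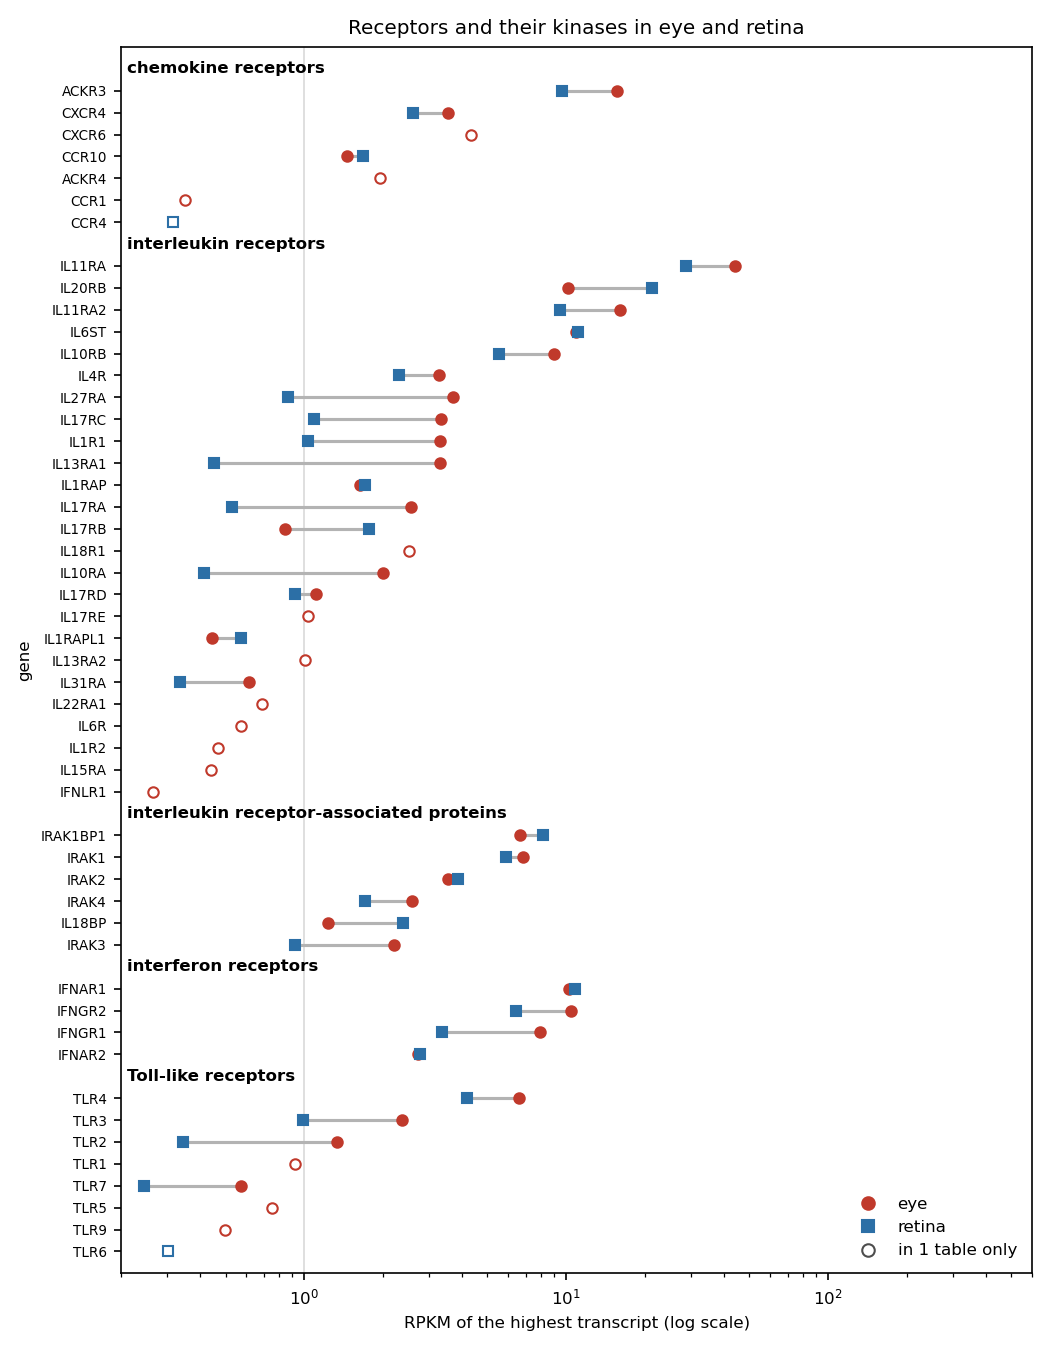
RPKM of the highest transcript (log scale) of chemokine, interleukin, interferon and Toll-like receptors and the receptor-associated proteins in eye (red circles) and retina (blue squares), with open symbols for genes found in 1 table only. IL11RA stands highest at 44.2 RPKM in eye and 28.7 RPKM in retina, and IL20RB and IL17RB stand about equally far apart with retina above eye, at a plain ratio of 2.11 each.

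The interferon regulatory factors (IRFs) are the transcription factors that switch on interferons and their target genes. Of 9 names, 8 were in both tables and 1 in eye only. Among the 8 compared, 7 were higher in eye, 4 of them past 2-fold, and the median difference was 0.96. By sums 3 were past 2-fold in eye and 2 in retina, and by sums at an equal total 5 of 8 lay on the eye side and the median was 0.27. IRF3, the constitutive factor activated by viral nucleic acid sensors, was the most abundant and close to even, with 25.3 RPKM in eye and 27.7 RPKM in retina. IRF2, a repressor of interferon genes, had 15.7 RPKM in eye and 10.6 RPKM in retina, and IRF9, the DNA-binding part of the type I interferon response complex, had 12.9 RPKM in eye and 9.71 RPKM in retina. These 3 were within 2-fold and stood above the other IRFs in retina.

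Those past 2-fold in eye included IRF1, IRF7 and IRF5. IRF1, a factor induced by interferon gamma, had 12.6 RPKM in eye and 5.62 RPKM in retina, a difference of 1.03. IRF7, the interferon-induced amplifier of type I interferons, had 10.6 RPKM in eye and 3.16 RPKM in retina, a difference of 1.48. IRF5, which acts below Toll-like receptors in macrophages, had 4.49 RPKM in eye and 0.831 RPKM in retina. IRF8, a factor of myeloid cells and microglia, had 2.22 RPKM in eye and 0.751 RPKM in retina, a difference of 0.88, and the lymphocyte factor IRF4 was found in eye only at 1.81 RPKM.

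Interferon-induced proteins formed the largest group beside the interleukin receptors, with 25 names, 18 in both tables, 5 in eye only and 2 in retina only. Of the 18 compared, 17 were higher in eye, 10 of them past 2-fold, and 0 were past 2-fold in retina. Their median difference was 1.07. By sums at an equal total 14 of 18 lay on the eye side and the median was 0.59. IFI27L2, a small mitochondrial membrane protein, had the highest eye level of all members and in retina the level next below CXCL14, with 379.5 RPKM in eye and 71.8 RPKM in retina. The eye value is that of a fragment of 198 bases, and another eye transcript of 804 bases had 149.9 RPKM. On the best-matching transcripts the level was 40.6 RPKM in eye and 23.9 RPKM in retina, a difference of 0.74.

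IFITM3, a membrane protein that blocks the entry of enveloped viruses, had 74.5 RPKM in eye and 22.3 RPKM in retina, a difference of 1.70. Its close relative IFITM1 was found in eye only, at 164 RPKM on a fragment of 215 bases, so the division between the pair is uncertain. IFITM10, a distant relative with no known induction by interferon, was nearly even, with 11.96 RPKM in eye and 9.74 RPKM in retina. MX1, a GTPase that traps viral nucleocapsids, had 15.8 RPKM in eye and 4.87 RPKM in retina, a difference of 1.52. IFI35 had 10.7 RPKM in eye and 2.14 RPKM in retina, a difference of 1.90.

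The IFIT proteins bind viral RNA, and all 4 in both tables were higher in eye. IFIT2 had 3.81 RPKM in eye and 0.491 RPKM in retina, a difference of 1.69. IFIT3 had 2.98 RPKM in eye and 0.609 RPKM in retina, and IFIT1B had 1.86 RPKM in eye and 0.406 RPKM in retina. IFIT5 was closer to even, with 1.26 RPKM in eye and 0.808 RPKM in retina, and IFIT1 was found in eye only at 0.772 RPKM. IFIT5, IFIT1B, IFIT3 and IFIT2 follow each other in RefSeq with at most 1 gene between them, and all 4 lay on the eye side. The direct neighbours IFI44L and IFI44 did so too, with 2.79 and 4.11 RPKM in eye and 0.758 and 1.11 RPKM in retina.

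Nucleases, GTPases and sensors of the group were lower in level. ISG20, an exonuclease of single-stranded RNA, had 4.11 RPKM in eye and 1.18 RPKM in retina, while ISG20L2, a nucleolar relative that processes ribosomal RNA, was even with 7.03 RPKM in eye and 6.05 RPKM in retina. GBP1, a GTPase that attacks the vacuoles of intracellular microbes, had 4.89 RPKM in eye and 2.74 RPKM in retina, but on the best-matching transcripts the difference was 0.01. EIF2AK2, the PKR kinase that stops translation on sensing double-stranded RNA, had 3.32 RPKM in eye and 1.69 RPKM in retina. IFIH1, the MDA5 sensor of long double-stranded RNA, had 1.09 RPKM in eye and 0.299 RPKM in retina. The GTPase IIGP1, known from mouse, had 3.48 RPKM in eye and 1.64 RPKM in retina. PRKRA, an activator of PKR also known for its part in microRNA processing, was the 1 compared member of the group on the retina side, with 13.04 RPKM in eye and 14.3 RPKM in retina. IFI204 and IFI203, DNA-binding proteins known from mouse, were found in retina only, at 0.774 and 0.549 RPKM.

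Another 5 members carry interferon in their name but are neither interferons, their receptors nor proteins named as induced by them, and they were even. IRF2BP2, IRF2BP1 and IRF2BPL, corepressors named for binding IRF2, had 22.8, 16.2 and 15.5 RPKM in eye and 17.1, 14.5 and 13.1 RPKM in retina. IFRD1 and IFRD2, named as interferon-related developmental regulators, had 18.4 and 17.5 RPKM in eye and 16.0 and 18.2 RPKM in retina. Of these 5, 0 were past 2-fold, and without them the median difference of the members was 0.67.

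**Figure D4:**
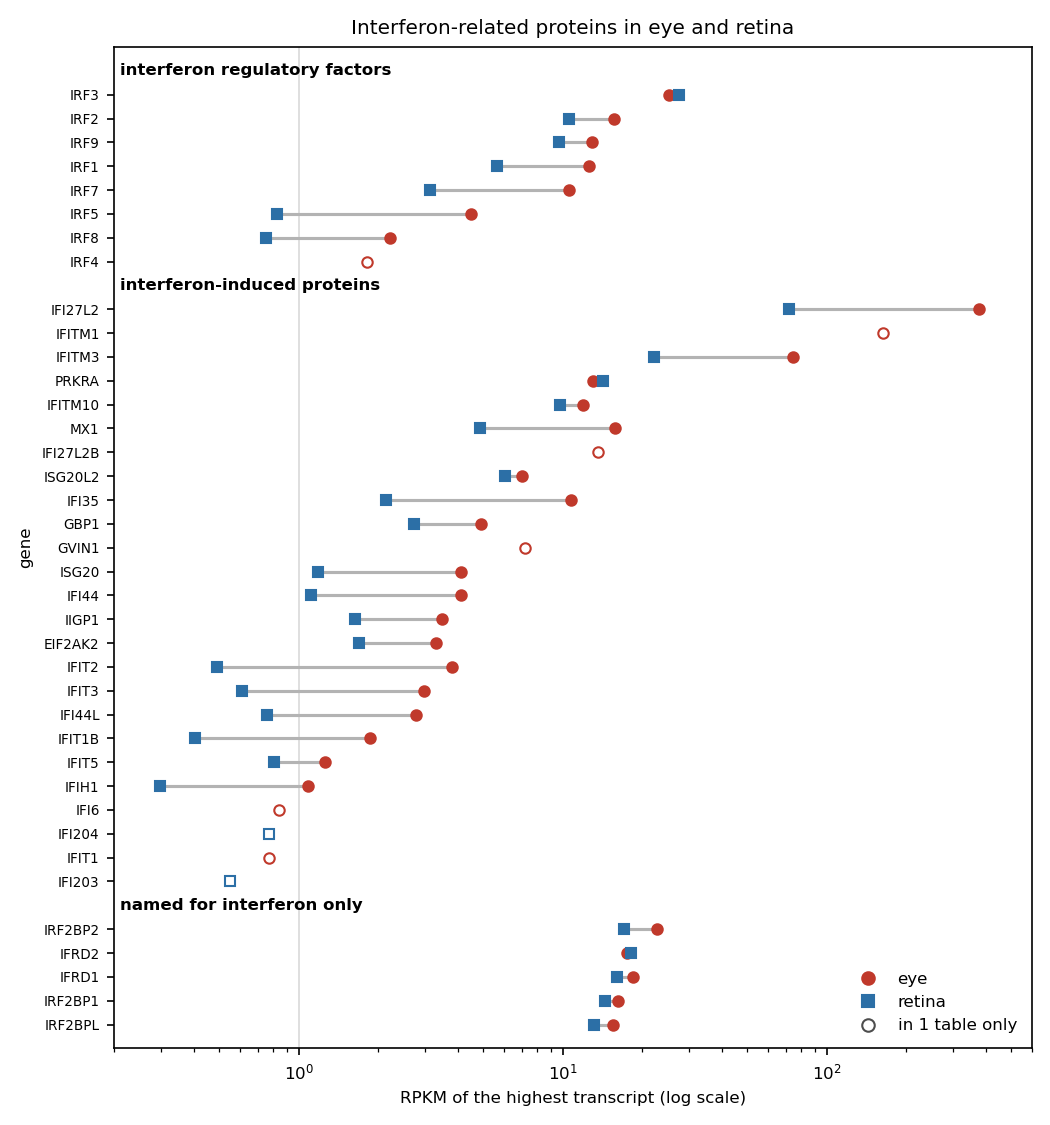
RPKM of the highest transcript (log scale) of interferon regulatory factors, the interferon-induced proteins and the 5 proteins named for interferon only, in eye (red circles) and retina (blue squares), with open symbols for genes found in 1 table only. IFI27L2, IFITM1 and IFITM3 stand highest in eye at 379.5, 164 and 74.5 RPKM, and the circles and squares of the last group nearly coincide.

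Genes of the same pathways that the name rule leaves out were counted for comparison. Over all proteins compared, 49.7% were higher in eye, 11.8% were past 2-fold in eye and 3.60% were past 2-fold in retina. The list of interferon-stimulated genes outside the rule had 10 compared, 9 higher in eye, 4 of them past 2-fold and 0 past 2-fold in retina, with a median difference of 0.76. BST2, which tethers virus particles to the cell, had 30.5 RPKM in eye and 4.26 RPKM in retina. ISG15, a ubiquitin-like modifier, had 29.2 RPKM in eye and 14.1 RPKM in retina. The interferon-induced targets inside and outside the rule lay mostly on the eye side. Both interferon gamma receptor chains did so too on the highest transcripts, with differences of 1.04 for IFNGR1 and 0.63 for IFNGR2. IFNG and both type I receptor chains did not. By sums the IFNGR2 difference was -0.09. A link between these differences was not tested.

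Of the Toll-like receptor adaptors and NF-kB proteins, 17 were compared, with 12 higher in eye, 5 higher in retina and 2 past 2-fold in eye. Those were MYD88, with 6.13 RPKM in eye and 2.29 RPKM in retina, and CD14, the lipopolysaccharide co-receptor, with 2.35 RPKM in eye and 0.492 RPKM in retina. A count of 2 in 17 is near the share of 11.8% over all proteins. Of the JAK, STAT and feedback genes, 15 were compared, with 9 higher in eye, 6 higher in retina and a median difference of 0.04. STAT6, the factor of IL4 and IL13 signalling, was the 1 past 2-fold, with 6.92 RPKM in eye and 1.72 RPKM in retina. A count of 1 in 15 is below the share over all proteins. All 5 compared genes of the nucleic acid sensor and inflammasome list were higher in eye, 3 of them past 2-fold. Among the 3, NOD1 had 6.13 RPKM in eye and 0.351 RPKM in retina, the latter on a fragment of 216 bases. On the best-matching transcripts the NOD1 difference was 0.87, short of 2-fold, while PYCARD and STING1 kept 1.43 and 1.40.

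The list of other cytokines and their receptors had 11 compared, 9 higher in eye and 2 in retina, with 3 past 2-fold in eye and 1 in retina. The cytokine MIF was abundant in both tissues, with 229 RPKM in eye and 318 RPKM in retina. Its difference was -0.47 on the highest transcripts and -2.84 on the best-matching ones, so its size rests on the choice of transcript. By the highest transcripts, the one past 2-fold in retina was ACKR1, the Duffy chemokine scavenger of red cells and venules. ACKR1 had 7.09 RPKM in eye and 39.0 RPKM in retina. Its levels come from transcripts of unlike length, 2263 bases in eye and 6940 bases in retina. On the best-matching transcripts the difference of ACKR1 was -1.40, against -2.31 on the highest ones. TNF was found in neither table.

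Markers of cell types that make or answer these signals differed between the tissues too. The microglia and macrophage markers, of which 12 of 14 were found in each table, summed to 109 RPKM in eye and 27.3 RPKM in retina. All 11 compared were higher in eye, 8 of them past 2-fold. P2RY12, CX3CR1 and ITGAM were within 2-fold, with differences of 0.03, 0.34 and 0.71. MRC1 was found in eye only, at 1.23 RPKM, and CSF1R was found in retina only, at 5.74 RPKM. Of the 14 lymphocyte and leukocyte markers, 12 were found in eye and 4 in retina, with sums of 22.6 RPKM in eye and 7.33 RPKM in retina. Of the 3 compared, 2 were higher in eye and 1 in retina. PTPRC, the common leukocyte antigen, had 1.62 RPKM in eye and 0.405 RPKM in retina. CD3D, CD3G, CD8A, CD79A and CD79B, defining markers of T and B cells, were found in eye only. CD3E, another T cell chain, was the one higher in retina, with 0.749 RPKM in eye and 1.97 RPKM in retina. The 8 granulocyte markers summed to 96.7 RPKM in eye and 22.4 RPKM in retina, with 4 found in eye and 2 in retina. S100A8 and S100A9, found in eye only, made up most of the eye sum with 49.6 and 30.2 RPKM. MMP9, the 1 granulocyte marker compared, was higher in retina by its highest transcripts, with 16.3 RPKM in eye and 22.2 RPKM in retina. Its difference of -0.43 turned to 0.54 on the best-matching transcripts, so its direction rests on the choice of transcript. The enzymes MPO and ELANE were found in neither table.

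The 6 endothelial markers summed to 92.7 RPKM in eye and 36.2 RPKM in retina. Of these, 5 were higher in eye, all 5 past 2-fold, against 11.8% of all proteins. PLVAP, a protein of fenestrated vessels, made up 50.9 RPKM of the eye sum and 0.336 RPKM of the retina sum, and without it the sums were 41.8 RPKM in eye and 35.9 RPKM in retina. The sums without PLVAP still hold KDR, a receptor of vascular growth factor. KDR was higher in retina, with 18.1 RPKM in eye and 29.8 RPKM in retina. PECAM1, CDH5, VWF and TEK were each past 2-fold in eye, with differences of 1.65, 1.43, 1.35 and 1.35. The 3 blood markers summed to 8873 RPKM in eye and 257 RPKM in retina. Most of the eye sum came from HBB and HBA, on fragments of 243 and 283 bases. On the best-matching transcripts their differences were 2.70 and 3.01, against 5.09 and 5.11 on the highest ones. The part of these markers, and of those of lens, cornea and connective tissue given above, in the differences of the members was not tested.

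The 29 members past 2-fold were followed through the 11 other processing choices that recompute a difference. The filters on low values do not, and they are not counted here. Of these members, 27 kept their sign under each of the 11 choices that gave a value. CXCL14 and IL20RB were the exceptions. Past 2-fold under each of them were 6 members, all on the eye side, among them CCL21, CXCL16, IL18, IL1RN and IFITM3. The lowest differences of these 5 over the choices were 1.98, 2.01, 1.72, 1.00 and 1.37. CCL27 lay between -2.37 and -0.84.

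**Figure D5:**
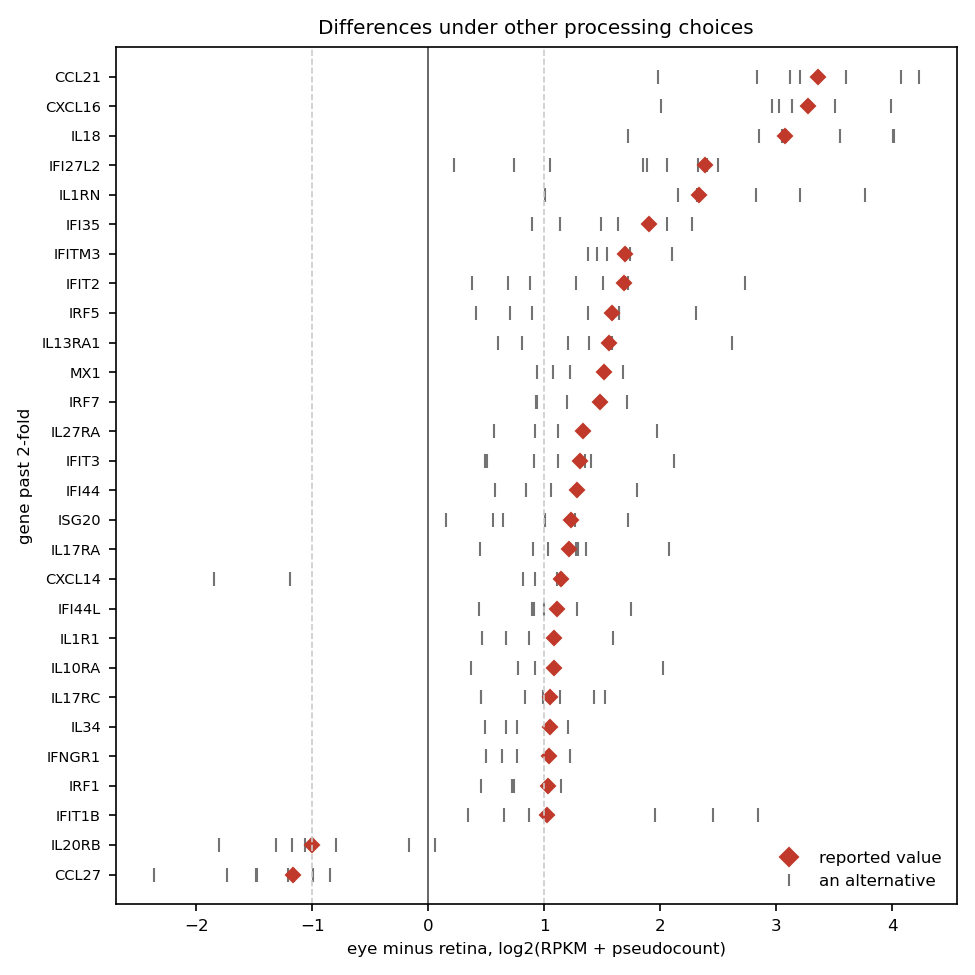
Difference between eye and retina, log2(RPKM + pseudocount), of 28 of the 29 members past 2-fold as reported (red diamonds) and under each of the 11 other processing choices (grey ticks), with dashed lines at 2-fold. The ticks of CXCL14 and IL20RB fall on both sides of 0, and those of CCL21, CXCL16, IL18, IL1RN and IFITM3 stay at or right of the line at 1.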

How the data were processed

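RNA of eye and retina was sequenced by the authors. Per the file headers, 1 table per tissue lists the expression value, length and top hit of every transcript, and another its Swiss-Prot hits. The authors' deposited expression values were taken to be RPKM because value times length was a whole multiple of 1 constant within 0.01 reads for 99.99% of transcripts. This gave totals behind the scaling of 264219337 reads for eye and 355988275 for retina. Per the file headers, the hit tables also hold a similarity in percent and a bit score, which were deposited by the authors and used only to choose the best-matching transcript and to describe matches. Per the submitters' processing notes, reads were handled with Bowtie. Its version, the assembler, the strand setting and the treatment of reads shared by several transcripts were not given in the sources used here.

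From the files, transcripts were grouped by Swiss-Prot entry name and the highest RPKM was taken as the level. Differences used log2(RPKM + 1) for names that both tables hold and that reached 1 RPKM in eye or retina. The call at 2-fold is a size, not a test. Intervals at 95% treat the recovered reads as Poisson counts. Entry names were translated to gene symbols by hand, and 102 of the 124 symbols were found in RefSeq (assembly mIctTri1.hap1), used for names and neighbours only. The members and gene lists were chosen with earlier results of these data known. Named were up to 5 members per role by mean level, the 10 differences farthest from 0 in each direction, the 5 highest members found in 1 table only per tissue, and members whose sign turned; the remaining members are given to complete their role and were chosen after their values were seen. Some genes that these rules select enter the counts but are not reported here by name. The listed genes left out of the rule are given as counts with examples. The scripts used Python 3.11.15, numpy 2.4.6, pandas 2.3.3 and matplotlib 3.10.9 and were tested on simulated data.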

Additional observations from a re-analysis of the deposited data

How the results depend on the processing

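Some of the 13 other processing choices moved the counts. Members at least 2-fold higher in eye (27 as reported) numbered 9 by sums at an equal total (11.1%, all proteins 9.01%). They numbered 10 with a pseudocount of 5 (12.8%, all proteins 6.09%) and 10 of 28 with a filter at 10 RPKM (35.7%, all proteins 12.8%). Members at least 2-fold higher in retina (2 as reported) numbered 9 by sums (all proteins 19.3%) and 15 by sums at an equal total (all proteins 35.6%). On best-matching transcripts they numbered 1 (all proteins 3.12%). By the length-weighted mean there were 0 (all proteins 2.05%), and with a pseudocount of 5 also 0 (all proteins 1.98%). Without members that overlap another gene, an alternative chosen after seeing the data, there was 1 (all proteins 3.60%). The median difference (0.64) was 0.085 by sums at an equal total, 0.34 at an equal total, 0.73 with a pseudocount of 0.1 and 0.32 with a pseudocount of 5. The share of members called (37.2%) was 12.8% with a pseudocount of 5, which by construction shrinks the differences of low genes.

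CXCL14 reversed to -1.20 by sums and to -1.84 by sums at an equal total, and IL20RB to 0.058 on best-matching transcripts. The CXCL14 sums take in 7 retina transcripts of near-equal reads, and the cause was not tested. Leaving out the members named for interferon only, also chosen after seeing the data, left 27 and 2 calls.

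No paired analysis was possible because the tables hold 1 value per tissue and no column per library. Leaving out a library was not run for the same reason. Depth limits the members under 1 RPKM most: the fewest reads behind a member's level were 11 in eye and 15 in retina.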

Other observations

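The matches behind the names differed by role. The median of the best similarity to Swiss-Prot was 85% over all members. It was 91.5% for the chemokine receptors and 90% for the interferon regulatory factors and the C-X-C chemokines. The interferon receptors had the lowest median of the roles, 70.5%, with a range from 63% to 77%. For IFNG, IL6, IL15, IL12A and IL12B, 5 members in all, the best match was a marmot protein, and marmots are close relatives of ground squirrels.

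Some members rest on short fragments. The highest transcript was under 200 bases for 5 members of the eye table and 6 of the retina table. IFI27L2 was the 1 member past 2-fold among the eye ones, with 198 bases, and IFIT1B had 159 bases in retina.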
